A study of Mus musculus with 4 samples.

Results

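The genes described here are 45 members of the cell cycle and DNA replication machinery, listed by name. Earlier results of these data were known when they were chosen, so the list may not be independent of the values. They cover the cyclins and their kinases, the proteins that license and copy DNA, the enzymes that supply nucleotides, and the kinases, checkpoint proteins and motors of mitosis. On the array, 42 of the 45 had a probe set whose annotation held their symbol alone, and each is represented by its probe set with the highest mean over the arrays. Ccnb1, Bub1b and Tyms had none and were dropped, Tyms because its probe sets also carry the symbol of its pseudogene. Of the 42, 36 lay above the floor of 173 intensity units on at least 1 array, among 6269 of the 8251 named genes of the series. The floor is the 40th percentile of all values, below which intensities were not told apart from background and are raised to it before a fold is taken. The other 6 members (Ccne2, Mcm6, Prim1, Aurka, Bub1 and Top2a) were at or below the floor on each array.

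The RNA was total RNA of epididymal white fat, pooled from male C57 BL6 mice aged 3 to 4 months, and each pool was put on 1 Affymetrix mouse array. The control pool stood beside pools of mice that received CL 316243, which activates β3-adrenergic receptors and so drives fat cells to break down lipid. The dose was 3 nmol/hr, and treatment lasted 1, 3 or 6 days. What the control mice received, the route of the drug and the number of mice in a pool are not stated in the labels used here, and 2 of the titles for treated pools spell the number of the compound differently. All 8 fat cell markers with a probe set, among them adiponectin (Adipoq, 25374 to 55274 intensity units), were above the floor on each array. With 1 array a group there are no replicates, no test was run, and the number of arrays limits the precision. Measurement error was estimated from pairs of probe sets of the same gene and holds no variation between animals or pools. In log2 units it was 0.35 at day 1, 0.27 at day 3 and 0.26 at day 6, each relative to control, so that 3 errors amount to 2.09-fold, 1.77-fold and 1.72-fold. The pairs used were above the floor on both arrays, so folds with a value at the floor are not covered. At day 3, 95% of probe sets with a mean 1 to 2 times the floor lay within 2.14-fold of control. For means 2 to 4 times the floor it was 2.38-fold, real changes included. A gene is said to have risen or fallen where the ratio of the floored intensities was at least 2-fold.

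A cell enters division when D-type cyclins with Cdk4, and then E-type cyclins with Cdk2, release the E2F transcription factors, which switch on the genes of DNA synthesis. The MCM helicase is loaded at origins before replication starts, and the genes of mitosis follow later, under factors that act through CCAAT boxes and the cell cycle homology region of their promoters. Mature fat cells are held not to divide, so that dividing cells in white fat are usually sought among progenitors, endothelial cells and immune cells. An array of whole tissue cannot tell more cells of a type from more RNA per cell.

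At day 3, all 3 genes of nucleotide supply rose, with 3 of 7 genes of mitotic entry and exit, 2 of 4 chromosome and cytoskeleton genes, and 1 gene each of 7 for licensing, 4 at the fork and 3 of the spindle. Of the 8 genes of the G1 and G1/S groups, 0 passed 2-fold, too few genes to set them apart from the shares of all genes. Of the 36 members above the floor, 11 rose and 0 fell at day 3, against 3.8% of 6269 genes above the floor that rose and 3.25% that fell. The median log2 change of the members was 0.59 and that of the 6269 genes 0.00. The members that rose were Stmn1, Tk1, Cdk1, Birc5, Cdc20, Rrm1, Ccnb2, Rrm2, Fen1, Mcm5 and Kif20a. In 7 of these 11 the control value was at or below the floor, and their folds are lower bounds.

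At day 1, 2 members rose and 1 fell, with a median of 0.00, against 7.51% of all genes above the floor that rose and 8.36% that fell (median -0.02). With 2 and 1 of 36 members past 2-fold, the day 1 counts are too small to set the members apart from the background. The pair that rose was Mcm4, a helicase subunit, and Hmgb2, a chromatin protein, at 2.13-fold and 2.04-fold. The fold of Hmgb2 lies inside the 3 errors of that comparison, and its probe set carries a mark of shared or mixed probes. At day 6, 2 members (Ccnb2 and Mad2l1) rose and 0 fell, with a median of 0.17, against 1.72% and 1.63% of all genes, whose median was 0.00.

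These shares depend on the floor, since 15 of the 36 members were above it on only 1 to 3 arrays. In control 23 of the 36 were above the floor, at day 1 26, at day 3 35 and at day 6 30. Over the 21 members above the floor on all 4 arrays, the medians were 0.11, 0.56 and 0.14 at days 1, 3 and 6, and 2, 4 and 2 of them rose. The share of all genes under that rule that rose was not counted, so these counts and medians are given without a background. Over all 42 members with a probe set the median at day 3 was 0.52, also without an all-gene value beside it.

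**Figure D1:**
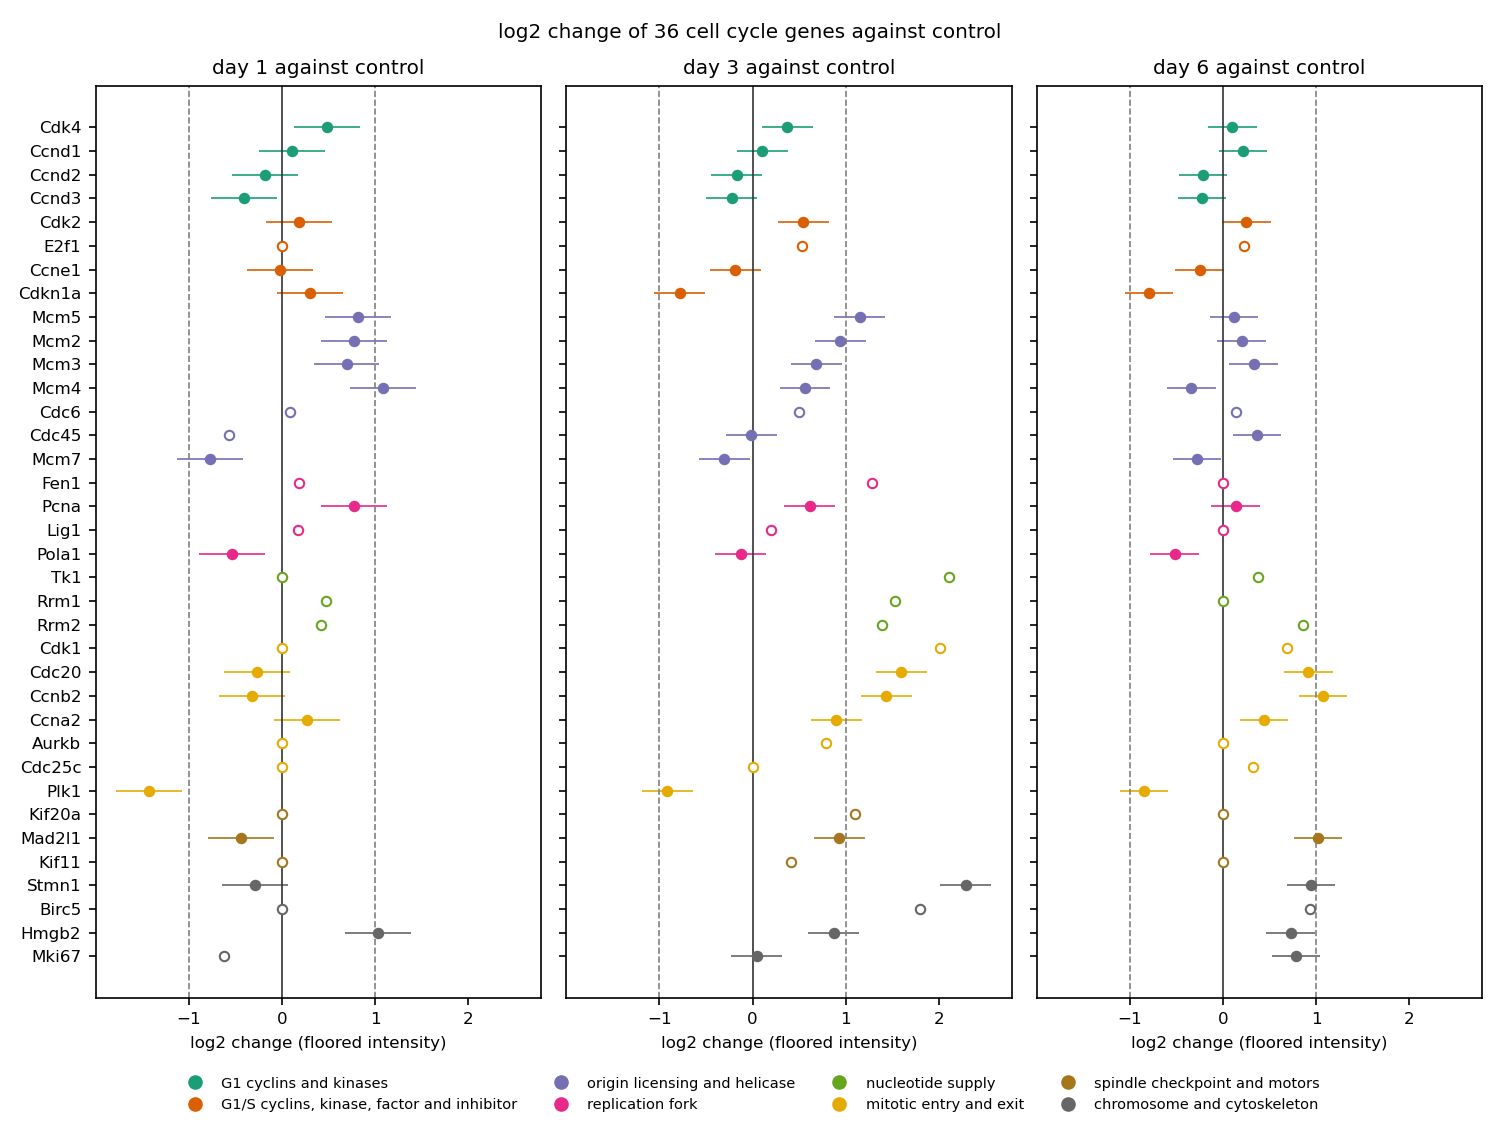
Change of each of the 36 cell cycle genes above the floor against control (x axis, log2 of floored intensities; 1 panel a day, 1 array a group). Filled points were above the floor on both arrays and carry a bar of 1 measurement error either way, open points had at least 1 array at the floor and are bounds or 0, and dashed lines mark 2-fold. At day 3, 11 points lie at or beyond the right dashed line, against 2 at day 1 and 2 at day 6.

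The 3 comparisons above share the control array. Set directly against day 1, the day 3 array had 10 members that rose and 1, Cdkn1a, that fell, with a median of 0.44. Of all genes above the floor, 5.81% rose and 6.3% fell in that comparison. From day 3 to day 6, 0 members rose and 7 fell (Cdk1, Fen1, Kif20a, Mcm5, Rrm1, Stmn1 and Tk1), against 1.5% and 2.65% of all genes, and the median was -0.37. These 2 comparisons share the day 3 array.

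The day 3 array held the highest of the 4 values for 19 of the 36 members, or 52.8%, whereas it did so for 19.2% of the 6269 genes. Control and day 1 each held the highest value of 6 members and day 6 of 5. Over all genes the shares were 24.4% for control, 31.5% for day 1 and 24.9% for day 6. The 36 include members that passed the floor through the day 3 array alone (Aurkb, Kif11 and Kif20a), for which day 3 had to be the highest. Of the 21 members above the floor on all 4 arrays, day 3 was highest for 7 (Cdk2, Ccna2, Ccnb2, Cdc20, Mcm2, Mcm5 and Stmn1), or 33.3%, against 18.7% of 5100 genes held to the same rule. Control and day 1 were each highest for 6 of these 21 and day 6 for 2, against 25%, 30.9% and 25.5% of the 5100.

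**Figure D2:**
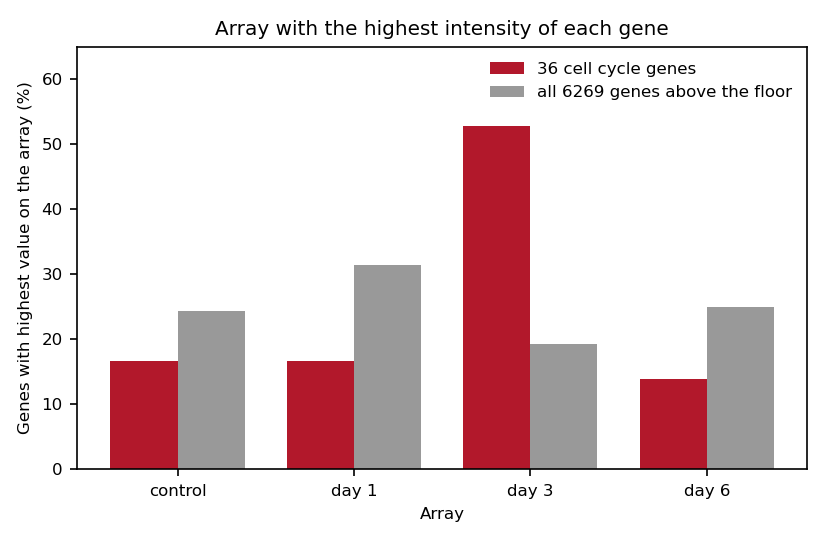
Share of genes (y axis, percent) whose highest intensity was on each array (x axis), for the 36 cell cycle genes and for all 6269 genes above the floor, each bar a share of its own set. The cell cycle genes stand at 52.8% on the day 3 array and all genes at 19.2%. Members low on the other arrays enter the first share, and over the 21 above the floor on all 4 arrays, which are not drawn, it is 33.3%.

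Because E2F sites, CCAAT boxes and the cell cycle homology region (CHR) are the known control elements of these genes, the promoters of members that moved together were searched for their letters. RefSeq promoters (GRCm38.p6) were matched by symbol for 28 of the 36 members, with 34 start sites, and for 9 of the 11 that rose at day 3, with 10 start sites. The 250 bases before the start are shown for 3 mitotic genes (Cdk1, Ccnb2, Cdc20) and 2 DNA synthesis genes (Mcm5, Rrm1), chosen after their values were seen. They run 5′ to 3′ on the gene's strand, with capitals for E2F, CHR and CCAAT letters.
Cdk1, chr10:69352913-69353162, minus strand: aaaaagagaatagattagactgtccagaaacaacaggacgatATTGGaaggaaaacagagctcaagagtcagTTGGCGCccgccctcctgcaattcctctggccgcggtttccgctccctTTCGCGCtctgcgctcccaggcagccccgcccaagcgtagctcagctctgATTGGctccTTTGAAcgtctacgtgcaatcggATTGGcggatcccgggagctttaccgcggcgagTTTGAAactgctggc
Ccnb2, chr9:70421555-70421804, minus strand: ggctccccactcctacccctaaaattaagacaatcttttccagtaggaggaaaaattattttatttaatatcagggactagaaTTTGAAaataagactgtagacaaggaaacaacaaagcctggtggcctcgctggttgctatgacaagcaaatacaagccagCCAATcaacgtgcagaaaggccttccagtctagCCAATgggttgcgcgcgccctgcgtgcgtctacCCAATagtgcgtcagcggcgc
Cdc20, chr4:118437344-118437593, minus strand: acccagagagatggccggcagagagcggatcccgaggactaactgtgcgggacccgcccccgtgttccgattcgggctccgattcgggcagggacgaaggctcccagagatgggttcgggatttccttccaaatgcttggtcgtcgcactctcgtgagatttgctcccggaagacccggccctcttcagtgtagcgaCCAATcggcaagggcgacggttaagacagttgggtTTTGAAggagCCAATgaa
Mcm5, chr8:75109259-75109508, plus strand: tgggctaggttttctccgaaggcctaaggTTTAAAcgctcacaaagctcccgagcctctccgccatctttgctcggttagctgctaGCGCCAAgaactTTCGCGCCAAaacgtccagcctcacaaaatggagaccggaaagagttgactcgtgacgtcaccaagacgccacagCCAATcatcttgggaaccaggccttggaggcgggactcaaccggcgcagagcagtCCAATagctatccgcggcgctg
Rrm1, chr7:102441445-102441694, plus strand: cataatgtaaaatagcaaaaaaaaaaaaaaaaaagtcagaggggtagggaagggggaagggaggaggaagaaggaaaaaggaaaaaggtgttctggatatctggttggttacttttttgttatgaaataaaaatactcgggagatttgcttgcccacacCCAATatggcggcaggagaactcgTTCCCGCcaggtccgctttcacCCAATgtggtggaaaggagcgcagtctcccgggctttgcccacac

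The E2F search took the letters TTCCCGC, the letters TTCGCGC, the letters TTGCCGC and the letters TTGGCGC. The CHR search took the letters TTTGAA and the letters TTTAAA, the CCAAT search its own letters and the GC box search the letters GGGCGG. Each was searched on both strands, and matches may overlap. E2F letters stood in 5 of the 10 promoters of members that rose at day 3, in 6 of 24 of the members that did not, and in 7.89% of all 32851 promoters of the same length. CHR letters stood in 7 of 10, 7 of 24 and 25.2% of all. CCAAT letters stood in 6 of 10, 13 of 24 and 33.8%, and GC box letters in 5 of 10, 20 of 24 and 32.7%. In the stretches shown, Cdk1 held 2 E2F, 2 CHR and 3 CCAAT matches, Ccnb2 0, 1 and 3, Cdc20 0, 1 and 2, Mcm5 3, 1 and 2, and Rrm1 1, 0 and 2. The matches are a description of letters and not of bound sites.

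The G1 cyclins and Cdk4, which drive the commitment to divide, had 4 measured members, and 0 of 4 passed 2-fold on any treated day. Of all genes above the floor, 7.51% rose and 8.36% fell at day 1. The shares were 3.8% and 3.25% at day 3, and 1.72% and 1.63% at day 6. A count of 0 among 4 genes is not set apart from these shares. Cyclin D1 (Ccnd1) stood at 1032 in control and at 1114, 1110 and 1199 on days 1, 3 and 6. Cyclin D2 (Ccnd2) stood at 626, 551, 557 and 539, and cyclin D3 (Ccnd3) at 1979, 1491, 1696 and 1692. With these probe sets the 3 cyclins were within 1.33-fold of control on each array. The second probe set of Ccnd1 gave 244, 342, 215 and 260, or 1.40-fold above control at day 1 and 1.14-fold below it at day 3. Cdk4, their kinase partner, went from 2685 to 3758 at day 1, 3472 at day 3 and 2881 at day 6, a log2 difference of 0.48 at day 1. Its second probe set showed 703, 930, 801 and 612, also highest at day 1.

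At the step from G1 to S, 0 of 4 members above the floor passed 2-fold against control. With 4 genes, this count too is not set apart from the shares of all genes. Cyclin E1 (Ccne1), which activates Cdk2, stood at 403, 398, 354 and 339 on the 4 arrays in order of time. Cdk2 stood at 470, 533, 687 and 560, 1.46-fold above control at day 3. The second probe set of Cdk2 was below the floor on each array, at -6, 104, 91 and 56. The transcription factor E2f1 was at 106 and 143 in control and at day 1, below the floor, and at 250 and 203 at days 3 and 6. This E2f1 probe set carries a mark of shared or mixed probes, and the second, without that mark, was below the floor throughout. Cdkn1a, the inhibitor p21 that arrests the cycle downstream of p53, stood at 1359, 1674, 791 and 783. It was the member that fell past 2-fold between days 1 and 3, at 2.12-fold, a call that is lost with the mean over both of its probe sets (log2 -0.66). The second gave 705, 1142, 972 and 909, so that both were highest at day 1 but lay on opposite sides of control at days 3 and 6.

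The genes that license origins and unwind DNA had their highest median at day 1, though its gap to day 3 was not tested. Their summed intensity was highest at day 3, at 3654 against 3252 at day 1. Of 7 members above the floor, 3 were highest at day 3, 2 at day 1, and 1 each in control and at day 6. On each treated day 5 of the 7 had a log2 change above 0, against 45.4%, 46.4% and 46.7% of all genes above the floor. At day 1 their median was 0.69, and 1 of the 7 rose, against 7.51% of all genes. At day 3 the median was 0.56 and 1 rose, and at day 6 it was 0.14 and 0 rose. Over all genes above the floor, the medians stood at -0.02, 0.00 and 0.00.

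Mcm2 to Mcm7 encode the subunits of the ring-shaped helicase. Mcm4 stood at 278 in control and at 591, 411 and 220 on days 1, 3 and 6, so that it rose at day 1 and was lowest at day 6. Mcm5 stood at 442, 777, 984 and 481, 1.76-fold above control at day 1 and 2.23-fold at day 3. Mcm2 stood at 215, 367, 414 and 247, which is 1.70-fold at day 1 and 1.93-fold at day 3. Mcm3 stood at 482, 779, 775 and 606, 1.62-fold and 1.61-fold above control on the first pair of treated days. For these 4 subunits days 1 and 3 both lay above control and above day 6. The day 1 folds of Mcm5, Mcm2 and Mcm3 lie inside the 3 errors of that comparison, 2.09-fold. At day 3, where 3 errors are 1.77-fold, so does that of Mcm3.

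Mcm7 did not share that order. It stood at 687 in control and at 402, 556 and 567, its lowest value at day 1. Cdc6, which loads the helicase, was at 160 in control and at 184, 245 and 190. Cdc45, which joins the helicase when origins fire, was at 257, 115, 255 and 331. Neither gene passed 2-fold against control with the floor used here, but with the floor at the 25th percentile Cdc45 had a log2 change of -1.16 at day 1. The second probe set of Mcm3 went from 123 to 435, 335 and 200, at least 2.51-fold higher at day 1. That of Mcm5 gave 116, 343, 138 and 297 and was below the floor at day 3, where the brighter one was highest.

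At the replication fork, Pcna, the sliding clamp that holds the polymerases on DNA, stood at 2446 in control and at 4187, 3751 and 2688. It was 1.71-fold above control at day 1 and 1.53-fold at day 3, short of 2-fold and inside 3 errors on both. The flap nuclease Fen1, which trims Okazaki fragments, was at 158, 196, 420 and 106, at least 2.43-fold higher at day 3. DNA ligase 1 (Lig1), which seals the fragments, was at 115, 195, 198 and 107, and its second probe set was below the floor on each array. Pola1, the catalytic subunit of the priming polymerase, stood at 305, 210, 279 and 213. Of these 4 genes, Fen1 was the one that rose, and Pola1 was highest in control.

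All 3 measured genes of nucleotide supply rose at day 3, and their median log2 change was 1.53. Thymidine kinase (Tk1), which salvages thymidine, was at 76, 133, 745 and 224, which puts day 3 at least 4.31-fold above control. Ribonucleotide reductase makes deoxynucleotides from a large subunit, Rrm1, and a small one, Rrm2, whose level follows S phase. Rrm1 was at 116, 241, 499 and 154, at least 2.89-fold higher at day 3, and below the floor again at day 6. Rrm2 was at 92, 231, 453 and 313, at least 2.62-fold higher at day 3. Both subunits were above the floor at day 1 already, whereas the brighter Tk1 probe set was not. The second probe set of Tk1 gave 192, 144, 285 and 348, with its highest value at day 6 and a log2 change of 0.57 at day 3. The second probe set of Rrm1 was below the floor on each array.

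The genes of mitotic entry and exit had a median log2 change of 0.00 at day 1, 0.90 at day 3 and 0.44 at day 6 over 7 members above the floor. At day 3, 3 of the 7 rose. Cdk1, the kinase that starts mitosis, was at 4, 68, 698 and 279, which puts day 3 at least 4.04-fold above control. Cyclin B2 (Ccnb2), a partner of Cdk1, stood at 653, 523, 1769 and 1375, or 2.71-fold above control at day 3 and 2.10-fold at day 6. Cdc20, which activates the ubiquitin ligase that ends mitosis, stood at 340, 283, 1030 and 643, or 3.03-fold at day 3 and 1.89-fold at day 6. For these 3 genes the day 3 value was above both control and day 1, and day 6 lay between.

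Cyclin A2 (Ccna2), which acts in S phase and early mitosis, stood at 467, 562, 871 and 635, 1.86-fold above control at day 3. Aurora kinase B (Aurkb), which corrects the attachment of chromosomes to the spindle, was above the floor at day 3 alone, at 299 against 68 in control, at least 1.73-fold. The phosphatase gene Cdc25c, which activates Cdk1, was above the floor at day 6 alone, at 216. This probe set carries a mark of shared or mixed probes. The second, without that mark, was below the floor throughout, at 70, 52, 72 and 35. Aurora kinase A (Aurka), a spindle pole kinase, was below the floor on every array, at 23, 101, 163 and 124.

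Polo-like kinase 1 (Plk1), which acts throughout mitosis, had 3 probe sets that disagreed. The brightest, marked as possibly shared with other transcripts, went from 594 to 221, 315 and 330 and fell 2.69-fold at day 1. Another, also marked, gave 268, 246, 402 and 422, and the dimmest, marked as well, gave 32, 81, 279 and 240. Days 3 and 6 were thus below control in the first and above it in the other pair, and the fall at day 1 rests on 1 probe set.

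Of the spindle checkpoint and motor genes, 3 were above the floor, and at day 3 their median log2 change was 0.93. Mad2l1, which delays mitosis until chromosomes are attached, stood at 257, 189, 490 and 521, 1.91-fold above control at day 3 and 2.03-fold at day 6. The kinesin gene Kif20a, needed for cytokinesis, was above the floor at day 3 alone, at 372 against 161 in control, at least 2.15-fold. This probe set is also marked as possibly shared with other transcripts. Its second probe set was below the floor throughout, at 29, 23, 138 and 56. Kif11, the motor that pushes spindle poles apart, was above the floor at day 3 alone too, at 231 against 53 in control. Mad2l1 differs from the motors in that its day 6 value was as high as that of day 3.

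Of 4 chromosome and cytoskeleton genes above the floor, 2 rose at day 3. Stathmin (Stmn1), which destabilises microtubules, stood at 559, 459, 2739 and 1075, or 4.90-fold above control at day 3 and 1.92-fold at day 6. Its second probe set was below the floor on each array. Survivin (Birc5), a partner of Aurora B in the chromosomal passenger complex, was at 150, 124, 601 and 330, at least 3.47-fold higher at day 3. Hmgb2 stood at 236, 482, 432 and 391, with its highest value at day 1.

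Mki67, which encodes the proliferation marker Ki-67, gave 2 different courses. The brighter probe set stood at 267, 160, 276 and 461, highest at day 6. The other, whose name carries no mark of shared or mixed probes, stood at 63, 65, 547 and 213 and was at least 3.16-fold higher than control at day 3. Between days 3 and 6 the brighter one had a log2 change of 0.74 and the other -1.36. Topoisomerase IIα (Top2a), which untangles chromosomes, was below the floor on all arrays, at -50, 21, 119 and 26.

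**Figure D3:**
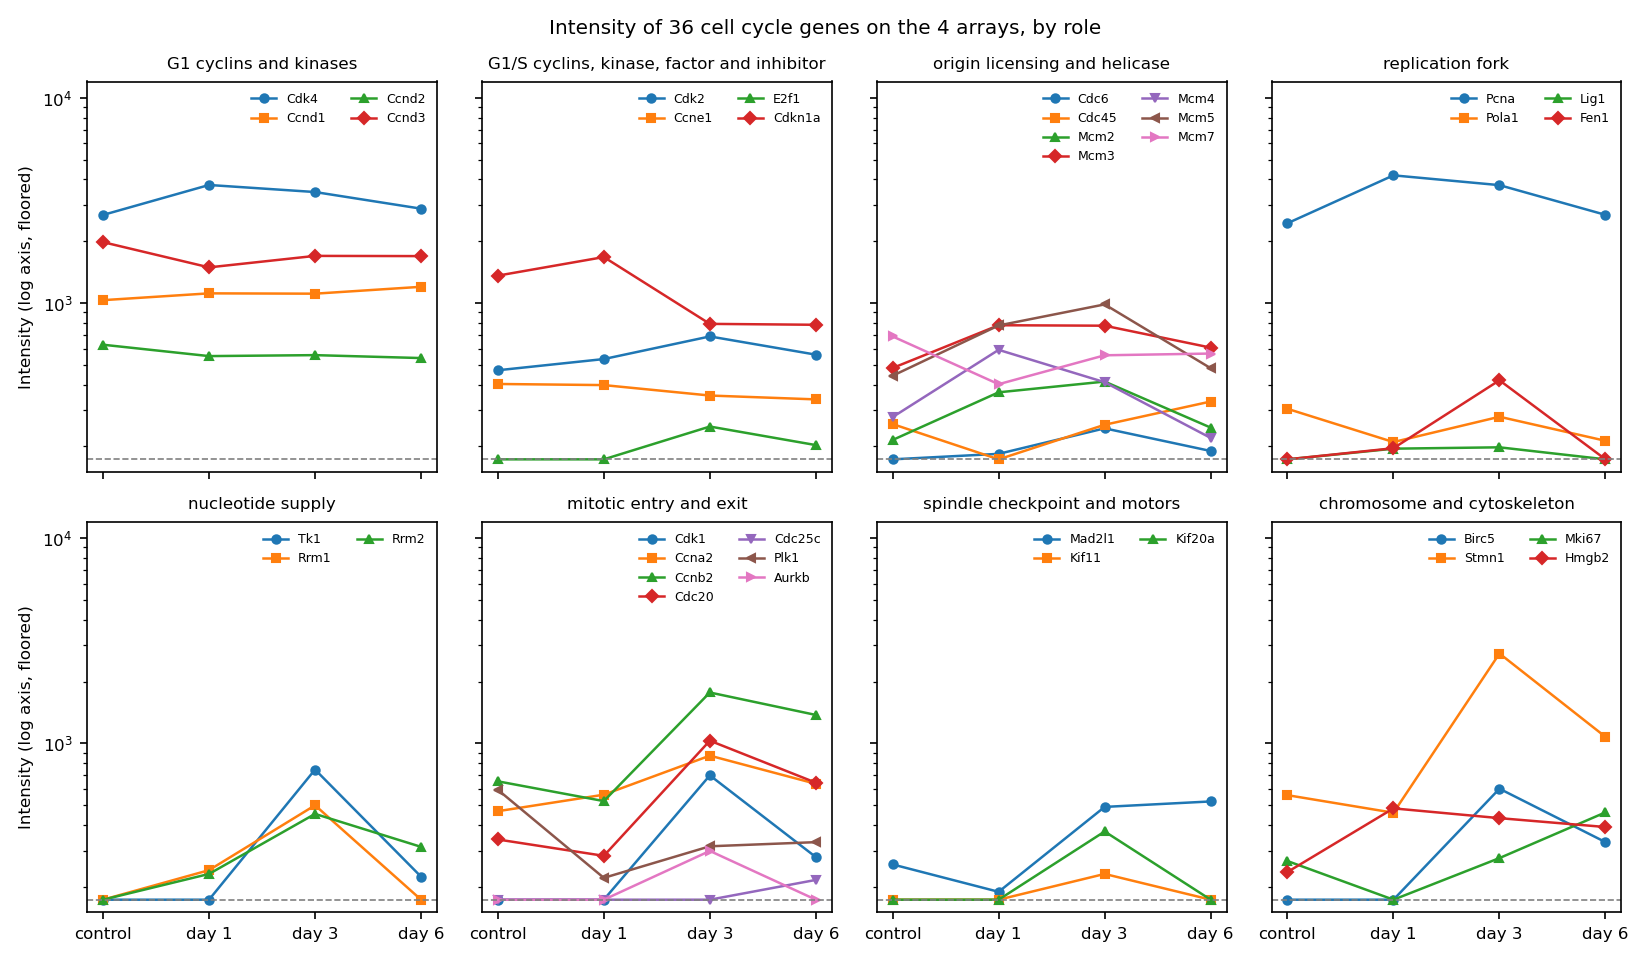
Intensity of the 36 genes above the floor on the 4 arrays (x axis, 1 array a group; y axis, intensity raised to the floor, log axis), a panel for each role and a line for each gene, with the floor dashed. Levels of different genes come from different probes and are not to be compared. The 3 nucleotide supply genes peak at day 3, while the D-type cyclins, by the probe sets drawn, stay within 1.33-fold of control.

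Over the members with more than 1 probe set (16 of 42), the others were set beside the one used. At day 3, 5 comparisons involved a member that had risen. In 4 of them the other probe set was not above the floor on either array, and in 1, that of Tk1, it lay on the same side of control. Where the member had not passed 2-fold at day 3, the other probe set lay on the opposite side of control in 4 of 13 comparisons, from Plk1, Cdkn1a and Ccnd1.

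**Figure D4:**
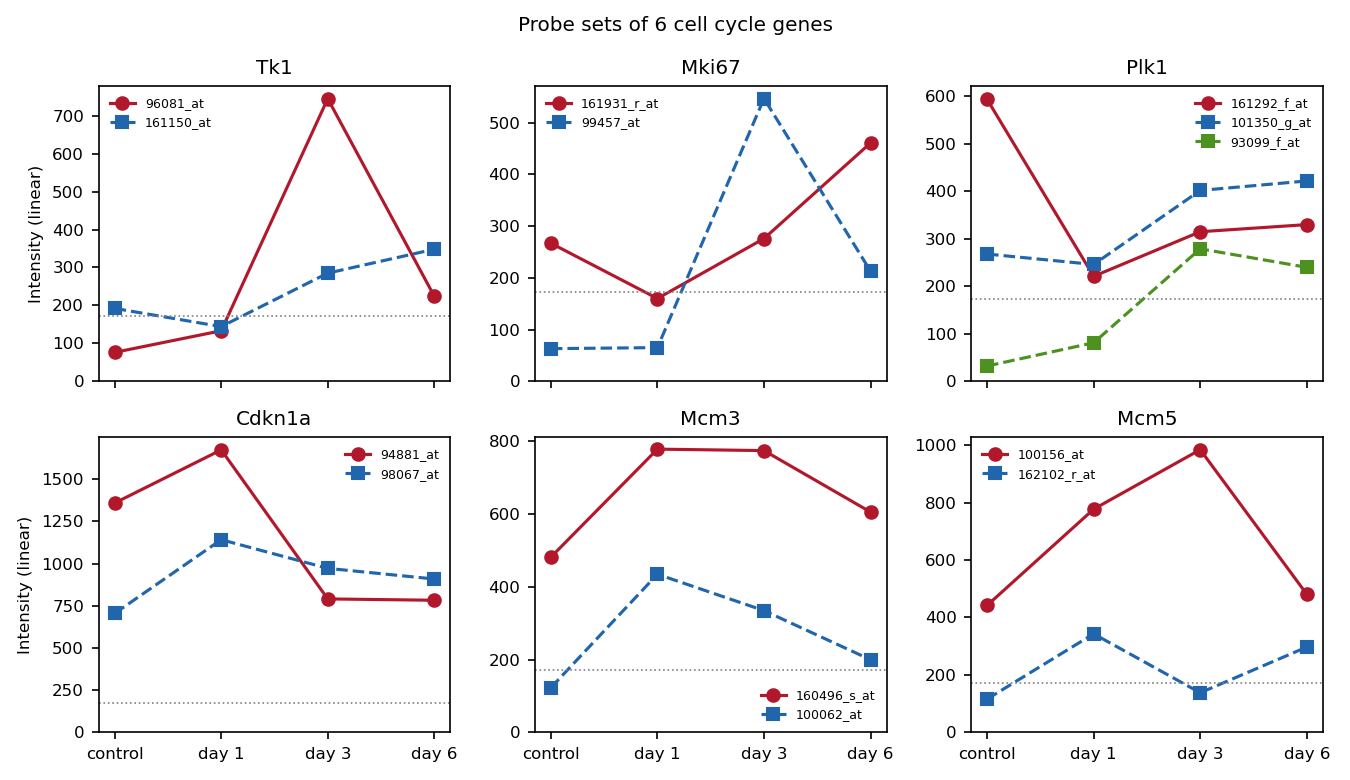
Intensities (y axis, linear, each panel with its own scale) of every probe set of 6 cell cycle genes on the 4 arrays (x axis, 1 array a group), with the probe set used drawn as a solid line and the floor dotted. Those of Mcm3 are both highest at day 1, whereas those of Mki67, Plk1 and Tk1 take different courses.

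Other genes of the pathway were counted on 7 further lists, which hold 108 genes with a probe set and 84 above the floor. At day 3, 8 of these 84 rose and 2 fell, and the median log2 change was 0.07, against the 3.8% and 3.25% of all genes. At day 1, 10 rose and 11 fell (median 0.00), against 7.51% and 8.36% of all genes. At day 6, 3 rose and 3 fell (median 0.02), against 1.72% and 1.63%. At day 3 the median of the 84 genes thus lay below the 0.59 of the members, a difference that was not tested. For each list below, where counts are small, these shares of all genes on the same day are the background.

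Other genes of mitosis and chromosomes came closest, with 4 of 26 risen and 0 fallen at day 3 and a median of 0.47. Prc1, which bundles the microtubules of the central spindle, was at 136, 100, 436 and 384, at least 2.52-fold higher at day 3 and 2.22-fold at day 6. Kif22, a motor that binds chromosomes, stood at 429, 465, 998 and 828, 2.33-fold above control at day 3. Anln, a scaffold of the contractile ring, stood at 490, 52, 597 and 532 and fell at least 2.83-fold at day 1. The lamin Lmnb1 stood at 244, 608, 364 and 210 and rose 2.49-fold at day 1. Prc1 and Kif22 were highest at day 3, and Lmnb1 at day 1. At day 1, 2 of the 26 (Lmnb1 and Tubb5) rose and 1 fell, and at day 6, 2 (Prc1 and Nusap1) rose and 0 fell. Tubb5, Cdkn2d, Nusap1, Kif2c, Mdm2 and Gas6 are named because a small count holds them, after their values were seen. Kif2c stood at 168, 104, 386 and 263, and Nusap1 at 118, 10, 355 and 376, and both rose at day 3.

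Of 5 other origin and licensing genes above the floor, Cdt1, which loads the helicase with Cdc6, rose on both early days. It stood at 346, 792, 947 and 419, or 2.29-fold at day 1 and 2.74-fold at day 3, and its second probe set went from 35 to 405, 385 and 145. The origin recognition subunit Orc5 stood at 683, 300, 616 and 751 and fell 2.28-fold at day 1. The list's medians were 0.21, 0.23 and 0.14 on days 1, 3 and 6.

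Of 19 other fork and nucleotide genes, 1 rose and 1 fell at day 1, 1 rose at day 3 and 0 passed 2-fold at day 6, with medians of 0.06, 0.07 and 0.00. Uhrf1, which guides DNA methylation to new strands, was at 88, 263, 466 and 121, at least 2.69-fold higher at day 3. Its enzyme Dnmt1 stood at 547, 1131, 889 and 627 and rose 2.07-fold at day 1, within 3 errors. The clamp loader subunit Rfc1 stood at 1069, 401, 908 and 685 and fell 2.67-fold at day 1.

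The other inhibitors of cyclin-dependent kinases and the retinoblastoma family had their lowest median at day 1, when 4 of 8 fell and 1 (Cdkn2d) rose, and the median log2 change was -0.95. At days 3 and 6 the medians were -0.53 and -0.24, and 1 and 0 fell. Cdkn2c, the Cdk4 and Cdk6 inhibitor p18, stood at 12112 in control and at 2184, 7933 and 8643, or 5.55-fold lower at day 1. Cdkn1c, the inhibitor p57, stood at 1579, 458, 767 and 1137, 3.45-fold lower at day 1 and 2.06-fold at day 3. Cdkn2b, the inhibitor p15, stood at 636, 109, 340 and 337, at least 3.68-fold lower at day 1. The retinoblastoma gene Rb1, which holds E2F in check, stood at 1133, 520, 784 and 860 and fell 2.18-fold, and its second probe set went from 438 to 210, 216 and 260. Each of these 4 genes was at its lowest at day 1, the day on which fat cell markers were lowest too: their 8 genes had a median of -0.97, with 4 fallen, and summed to 101012 intensity units against 178800 in control. The part of that shift in these falls was not tested.

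Of the other cyclins, kinases and regulators, 1 of 9 rose and 2 fell at day 1, and 1 rose and 0 fell at days 3 and 6, with medians of -0.30, 0.10 and 0.20. The gene that rose on each day was Cks2, a small subunit that binds Cdk1, at 139, 709, 754 and 588, at least 4.10-fold, 4.36-fold and 3.40-fold. Cyclin G2 (Ccng2), which is linked to arrest, stood at 2936, 1025, 1975 and 2691 and fell 2.86-fold at day 1. Cyclin C (Ccnc), a part of the Mediator kinase, stood at 751, 367, 474 and 590 and fell 2.05-fold, within 3 errors. Of 5 other transcription factors, 2 rose at day 1 and 0 fell on any day, with medians of 0.33, 0.35 and 0.00. Myc, which promotes growth and entry into the cycle, was at 156, 446, 296 and 140, at least 2.58-fold higher at day 1. Foxm1, which drives mitotic genes, stood at 244, 546, 481 and 287, 2.23-fold above control at day 1, while its second probe set was below the floor.

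The damage checkpoint and growth arrest genes split by day. Of 12 above the floor, 2 (Gadd45b and Mdm2) rose and 2 (Gas1 and Gas6) fell at day 1, 1 (Gadd45b) rose and 1 (Gadd45g) fell at day 3, and 0 rose and 3 (Gadd45a, Gadd45g and Gas6) fell at day 6, with medians of 0.20, -0.42 and -0.06. Gadd45b, a stress sensor, was at 127, 2134, 356 and 334, at least 12.3-fold higher at day 1, and its second probe set went from 105 to 960, 259 and 134. Gadd45a stood at 878, 1310, 487 and 242 and fell 3.63-fold at day 6, and Gadd45g at 1915, 2135, 737 and 873, with a fall of 2.60-fold at day 3. The arrest gene Gas1 stood at 4384, 1558, 2518 and 2623 and fell 2.81-fold at day 1. Gadd45a and Gadd45g were thus highest at day 1 and below control later.

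Markers of the cell types in fat were set beside the members. Macrophage and myeloid markers, 12 of 12 above the floor, had medians of 1.74, 1.60 and 0.29, with 8, 7 and 1 risen and 0 fallen on any day. Their summed intensity was 36537 in control and 102050, 94153 and 44723 on days 1, 3 and 6. The F4/80 gene Adgre1, one of the markers named after their values were seen, stood at 692, 1321, 3254 and 1013, highest at day 3. From day 1 to day 3, 7 of the 12 markers had a log2 change above 0 (Cd68, Adgre1, Csf1r, Lyz2, Ctss, Mrc1 and Laptm5), with a median of 0.18, against the members' 0.44. Of the 12, 1 (Adgre1) rose and 3 (Cd14, Fcer1g and Itgam) fell, against 5.81% and 6.3% of all genes. From day 3 to day 6, 7 of the 12 fell and 0 rose, with a median of -1.19, against the members' -0.37. Of all genes, 2.65% fell and 1.5% rose. The part of myeloid cells in the members' values was not tested.

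No other marker list had a median above 0.21 at day 3. Adipocyte progenitor and fibroblast markers (9 of 9 above the floor) had medians of -0.05, -0.29 and -0.23, with 1 fallen at day 1 and 0 risen on any day, and summed to between 43425 and 54215. Endothelial markers (9 of 9) had medians of -0.72, -0.54 and -0.20 and summed to between 8430 and 12571. Of 9 T and NK cell markers with a probe set, 6 were at or below the floor on all arrays, among them Cd3d, Cd3e, Cd3g and Cd8a, and their sum was 944 in control and 708, 723 and 759 on days 1, 3 and 6. B and plasma cell markers (6 of 6) had medians of -0.43, -0.17 and 0.08, mast cell markers (4 of 6) -0.03, 0.21 and 0.31, and erythroid markers (3 of 3) -0.24, -0.29 and -0.11. The part of each of these cell types in the members' values was not tested.

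Neighbouring tissue rich in dividing cells could add testis and germ cell markers. Of 12, 8 were at or below the floor on all arrays, including Ddx4, Sycp1, Sycp3 and Prm2. The medians of the other 4 were 0.01, 0.00 and 0.46. Among these, named after their values were seen, Dazl was at 96, 128, 174 and 240. Prm1 was at -23, 56, 125 and 307, and Tnp1 at 1258, 1278, 1234 and 1709. The sum over the 12 was 1806 in control, 9756 at day 1, of which Star alone gave 7991, and 2102 and 2659 later. The part of such tissue in the members' values was not tested. Neutrophil markers (7 of 9) had medians of 0.00 on each day and summed to 2668, 69527, 3372 and 2474, with S100a8 and S100a9 giving most of the day 1 sum. Smooth muscle markers (5 of 5) had medians of -0.38, -0.79 and -0.88, and mesothelial and epithelial markers (7 of 8) -0.40, -0.68 and -0.17.

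**Figure D5:**
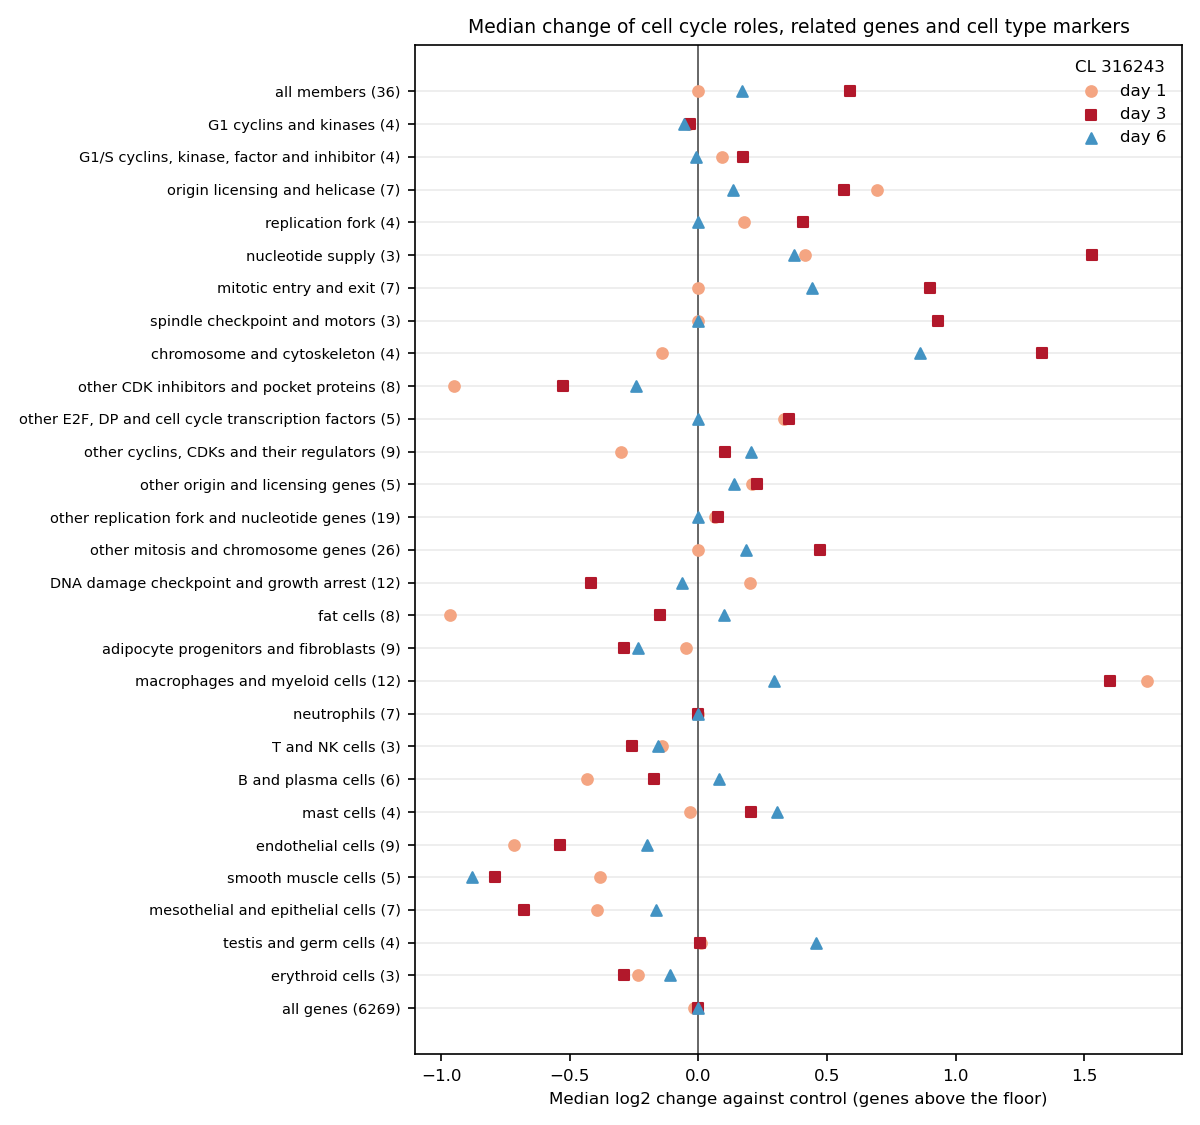
Median log2 change against control (x axis) at days 1, 3 and 6 for the 36 cell cycle members, their 8 roles, 7 lists of related genes and 12 lists of cell type markers, with the number of genes above the floor in brackets and all genes at the bottom. The members stand at 0.00, 0.59 and 0.17, and the macrophage and myeloid markers at 1.74, 1.60 and 0.29.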

How the data were processed

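Total RNA of 4 pools was measured on 1 Affymetrix array each. The authors deposited an intensity for each probe set on a linear scale. The sources used here do not give the software, background step or normalization. Whole numbers at or below 0 made up 12.1% to 12.4% of an array. The 4 columns have nearly the same quantiles, so each change is relative to a shared distribution.

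Arrays were scaled so that their trimmed means, leaving out 2% of values at either end, were equal (factors 0.999 to 1.001), floored at the 40th percentile (173 units) and put on the log2 scale with numpy 2.4.6 and pandas 2.3.3. Of 12422 probe sets besides 66 controls, 10833 had 1 symbol in the array's annotation, 396 several and 1193 none listed. All 60 member probe sets matched RefSeq Entrez identifiers, and 0 symbols changed. Probe sets whose names mark shared or mixed probes were kept, among them those of Cdc25c, E2f1, Hmgb2, Kif20a, Kif22, Mcm3, Mki67 and Plk1. A fold with 1 value at the floor is a lower bound. The method was tested on simulated data in which only probe sets well above the floor were changed, so calls near the floor were not covered. The simulated noise was smaller than the measurement errors given above. Each group has 1 array, so depth and replicate error are unknown.

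Every member above the floor is named, and up to 4 genes of each other list with the largest change past 2-fold. The members and lists were chosen with earlier results of these data known. Alternatives were other floors, scalings, probe set choices and fold thresholds.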

Additional observations from a re-analysis of the deposited data

How the results depend on the processing

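Shares of all genes under the same setting stand in brackets. With the floor at the 25th percentile (40 members above it), 4 members rose (9.04%) and 2 fell (10.3%) at day 1 and 9 rose at day 6 (3.6%), and the day 3 median was 0.87. At the 60th percentile (19 members), 0 rose (6.63%) and 0 fell (7.01%) at day 1, 2 rose at day 3 (2.97%) and 1 at day 6 (1.32%), 2 rose from day 1 to day 3 (4.72%) and 1 fell from day 3 to day 6 (1.78%). This floor leaves fewer members. With the mean over all probe sets of a gene, 0 fell at day 1 (7.07%) and from day 1 to day 3 (5.38%), and 2 fell from day 3 to day 6 (2.05%). Without shared or mixed probe sets (31 members above the floor), 0 fell at day 1 (8.53%), where Plk1 had no probe set left. Under this setting Mki67 had a log2 change of -1.36 from day 3 to day 6, against 0.74.

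At 1.5-fold, 6 rose (15.95%) and 3 fell (18.4%) at day 1, 18 rose (9.94%) and 2 fell (10.6%) at day 3, 9 rose (7.93%) and 2 fell (7.83%) at day 6, and 1 rose (7.11%) and 12 fell (7.80%) from day 3 to day 6. At 3-fold, 0 rose (3.40%) and 0 fell (2.84%) at day 1, 5 rose at day 3 (1.34%) and 0 at day 6 (0.319%). From day 1 to day 3, 6 rose (1.61%) and 0 fell (2.23%), and from day 3 to day 6, 1 fell (0.686%). The share of members highest at day 3 was 33.3% over those above the floor on all 4 arrays, an alternative chosen after seeing the data.

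Of the counts, medians and shares compared, 86 kept to the value in the text within the limits set and 30 did not. The median at day 3 lay between 0.37 and 0.87. Of the changes of single members, 921 kept their side of 2-fold, 22 passed it, 26 no longer did and 1 reversed. Values as deposited and quantile normalization moved 0 calls of members. They could hardly have moved any, because the columns had nearly the same quantiles. Each of these settings gives 180 of the 921. Intensity near the floor limits what can be seen: in control 13 of the 36 members were at or below it. No paired analysis was possible because each group has 1 array.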
